A study of Homo sapiens with 4 samples.

Results

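The genes of adenosine signalling described here are 9 of the 51103 genes in the deposited tables: the receptors ADORA1, ADORA2A and ADORA2B, the surface enzymes ENTPD1 and NT5E, the carriers SLC29A1 and SLC29A2, and the enzymes ADK and ADA. They were taken by gene name. The set was selected on the log2 fold changes of this same comparison, in which ADORA1 had already been named, so the members' differences are given as a description, with the standard error of the fit and without p-values. The RNA came from SCC-15 cells, a human line labelled as oral squamous cell carcinoma. Cells given lentivirus to overexpress REEP6, a membrane protein of the endoplasmic reticulum (2 libraries, labelled REEP6-overexpression), were set against cells labelled NC, here called the negative control (2 libraries), and the series asked which genes respond to REEP6. The labels do not say what the control virus carried, whether either line was a clone, or whether replicates were separate cultures, so errors measure the spread between these samples only.

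Adenosine is a signal that tissues release or make from ATP under stress. Outside the cell, ENTPD1 (CD39) strips ATP and ADP to AMP, and NT5E (CD73) turns AMP into adenosine. Of the receptors, the product of ADORA1 couples to inhibitory G proteins that lower cyclic AMP, while the products of ADORA2A and ADORA2B couple to stimulatory G proteins that raise it. The equilibrative carriers SLC29A1 and SLC29A2 let adenosine cross the membrane in either direction. Inside, ADK phosphorylates it back to AMP and ADA deaminates it to inosine. NT5E is abundant in many carcinoma and mesenchymal cells.

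The libraries held 12856256 to 15208629 counts assigned to genes. REEP6 itself had 20.0 and 20.9 FPKM in the REEP6 libraries, against 11.1 and 12.6 FPKM in the controls (log2 fold change 0.82 ± 0.108 SE, edgeR adjusted p 0.00119). FPKM is the count scaled to the gene's length and to the library's total count. The defining markers of squamous epithelium were nearly absent under both conditions. Of 14 such markers, 13 stayed below 1 FPKM in every library, with a highest value of 0.275 FPKM. KRT6A, KRT6B and DSG3 had no count, and PERP, which other epithelia also express, carried almost the whole sum of 178 to 206 FPKM in the REEP6 libraries and 171 to 208 FPKM in the controls. The cells are therefore called by their label and not by a cell type.

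In short, ADORA1 was 2.64-fold, ADA 1.84-fold and SLC29A1 1.39-fold higher with REEP6, and NT5E was 1.44-fold lower (n = 2 per group). ADORA2B, SLC29A2 and ADK differed by less. ENTPD1 and ADORA2A stayed below the level needed for the test, which was 1 FPKM in at least 2 libraries and which 7 of the 9 genes met. Of these 7, 4 passed an edgeR adjusted p of 0.05 over all 13077 genes tested, 3 higher and 1 lower, where 25.0% of all genes passed (10.9% higher and 14.2% lower). The FPKM of the groups did not overlap for any of the 7, 4 of them higher and 3 lower, as was the case for 63.5% of all genes tested (28.2% higher and 35.3% lower). Nothing is read from these counts, because the choice of genes used the same contrast. The median log2 fold change was 0.20 for the 7 genes and -0.01 for all genes tested.

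The upstream sequences of the 4 genes past the threshold are shown because the results below turn on these genes. They are the 250 bases before an annotated start in RefSeq on GRCh38.p14, read 5′ to 3′ on the gene's strand. The ADORA1 window is chr1:203127476-203127725 (plus strand), that of ADA is chr20:44651700-44651949 (minus), that of SLC29A1 is chr6:44219365-44219614 (plus) and that of NT5E is chr6:85449833-85450082 (plus). Capitals mark GC boxes (GGGCGG), half-sites of the cAMP response element (TGACG) and hypoxia response cores (ACGTG), searched on both strands, with overlapping matches kept.
ADORA1: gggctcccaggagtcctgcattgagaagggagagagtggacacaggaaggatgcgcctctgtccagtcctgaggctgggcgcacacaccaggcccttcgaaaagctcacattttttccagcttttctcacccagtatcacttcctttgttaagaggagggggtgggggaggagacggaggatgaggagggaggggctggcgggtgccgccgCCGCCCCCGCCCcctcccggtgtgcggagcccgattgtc
ADA: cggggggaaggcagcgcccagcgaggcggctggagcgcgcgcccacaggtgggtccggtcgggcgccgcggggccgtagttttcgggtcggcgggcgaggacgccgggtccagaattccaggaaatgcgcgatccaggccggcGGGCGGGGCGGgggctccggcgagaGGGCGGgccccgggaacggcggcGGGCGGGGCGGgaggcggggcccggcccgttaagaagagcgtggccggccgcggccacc
SLC29A1: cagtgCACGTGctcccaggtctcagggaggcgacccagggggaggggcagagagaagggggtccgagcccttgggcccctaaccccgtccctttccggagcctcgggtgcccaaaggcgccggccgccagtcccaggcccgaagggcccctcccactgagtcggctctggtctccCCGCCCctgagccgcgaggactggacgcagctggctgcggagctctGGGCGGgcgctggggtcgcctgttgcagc
NT5E: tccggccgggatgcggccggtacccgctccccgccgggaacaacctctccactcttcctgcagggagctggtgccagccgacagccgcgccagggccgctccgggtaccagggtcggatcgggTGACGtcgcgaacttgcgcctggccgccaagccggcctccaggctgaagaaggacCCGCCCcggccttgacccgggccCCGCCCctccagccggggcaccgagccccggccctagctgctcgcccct

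The ADA window was the richest in GC boxes, with 5 matches. The ADORA1 window held 2 matches side by side, at a GC content of 63.2%. The median GC content over all 34943 windows of the same length was 58.0%. The SLC29A1 window held 2 GC boxes, and its 2 matches of the hypoxia core are the same letters read on either strand. The NT5E window held 2 GC boxes and 1 cAMP half-site. Sequences were found for 7 of the 9 genes, in 13 windows, since ENTPD1 had 5 and SLC29A1 and ADK 2 each. A GC box was found in 8 of the 13 windows, the cAMP half-site in 5 and the hypoxia core in 1. Among all windows, 42.5% held the GC box, 21.2% the cAMP half-site and 18.5% the hypoxia core. ADORA2A and SLC29A2 had no entry. The counts are per gene, and ADORA1 alone has 8 annotated transcript starts, so the data do not say which start was used.

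Among the receptors, ADORA1 (chromosome 1, 203090654 to 203167405, plus strand, GRCh38) differed most. Its level was 6.13 and 5.58 FPKM in the REEP6 libraries, against 2.25 and 2.27 FPKM in the controls, on counts of 340 and 311 against 121 and 145. Both REEP6 libraries stood well above both controls, and the controls were nearly equal to each other. The means were 5.85 ± 0.389 FPKM with REEP6 and 2.26 ± 0.0206 FPKM in the control (SD, n = 2), with a log2 fold change of 1.40 ± 0.151 (SE). ADORA2B (chromosome 17, 15944917 to 15975746, plus strand) was the most abundant receptor in every library, with 19.6 and 21.3 FPKM with REEP6 and 17.1 and 19.0 FPKM in the controls. REEP6 replicate 1 and control replicate 2 lay close together, the log2 fold change was 0.20 ± 0.103 (SE), and ADORA2B did not pass the threshold, although it did in 1 of 13 alternatives, the replicate block. Leaving out the first control gave 0.13 and leaving out the second gave 0.31, and the value was 0.07 with FPKM scaled to equal sums.

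ADORA2A (chromosome 22, 24417879 to 24442360, plus strand) was barely detected, with 3 and 2 counts with REEP6 and 3 and 3 in the controls. The sums of 5 counts (exact Poisson interval 1.62 to 11.7, counting error only) and 6 counts (2.20 to 13.1) leave no difference detectable at this depth. The remaining receptor gene, ADORA3, had 0 counts in all 4 libraries, where a count of 0 allows up to 3 counts in each by the one-sided limit used for counts of 0, unlike the two-sided intervals of ADORA2A. The receptor RNA counted in these cells was thus nearly all ADORA2B and ADORA1. The span of ADORA2A overlaps the antisense gene ADORA2A-AS1 and, on the same strand, the protein-coding gene SPECC1L-ADORA2A. The latter had 0 and 0 counts with REEP6 and 0 and 1 in the controls. How reads shared by these genes were treated is not known, so the ADORA2A level and the receptor shares hold only for reads assigned to a gene. Of the summed receptor FPKM, ADORA1 took 23.8% and 20.7% in the REEP6 libraries, against 11.6% and 10.6% in the controls. The sum itself was 25.8 and 26.9 FPKM with REEP6, against 19.4 and 21.4 FPKM in the controls, so the groups did not overlap in either quantity. The level of ADORA2B was 3.19 and 3.82 times that of ADORA1 with REEP6 and 7.62 and 8.37 times in the controls.

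**Figure D1:**
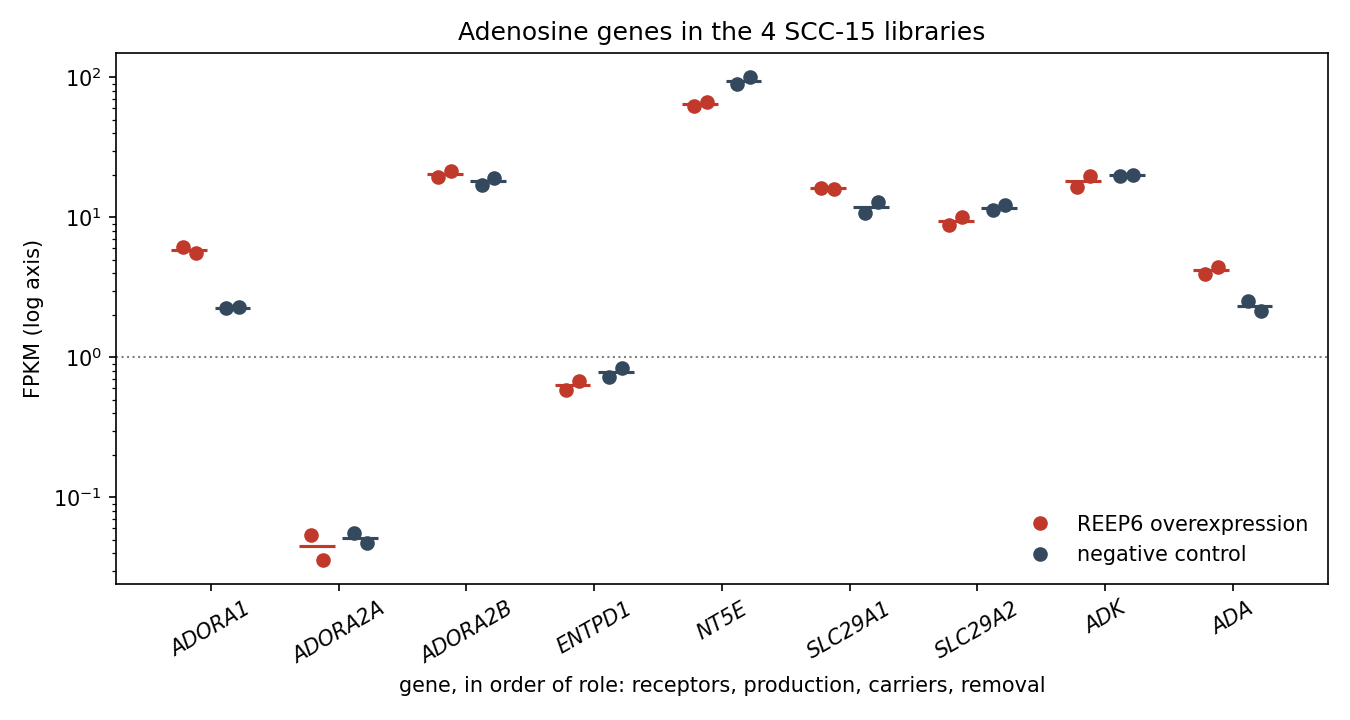
FPKM (log axis) of the 9 adenosine genes in each library, with REEP6 overexpression to the left of the negative control for each gene; points are single libraries, short lines are means of 2, and the dotted line is 1 FPKM. ADORA1 lies at 6.13 and 5.58 FPKM with REEP6, against 2.25 and 2.27 FPKM in the controls, NT5E is the highest gene throughout, and ADORA2A is far below 1 FPKM.

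Of the enzymes that make adenosine outside the cell, NT5E (chromosome 6, 85449584 to 85495791, plus strand) was the most abundant of the 9 genes in every library. Its level was 62.6 and 67.1 FPKM with REEP6, against 89.4 and 100.4 FPKM in the controls. Both REEP6 libraries lay below both controls, with a log2 fold change of -0.52 ± 0.0911 (SE). ENTPD1 (chromosome 10, 95711779 to 95869695, plus strand), a source of the AMP that NT5E uses, was under 1 FPKM throughout. It had 0.585 and 0.679 FPKM with REEP6 and 0.725 and 0.839 FPKM in the controls. Without the FPKM filter its log2 fold change was -0.27 ± 0.257 (SE). Its span overlaps the antisense gene ENTPD1-AS1, which had 84 and 89 counts with REEP6 and 87 and 102 in the controls. On the same strand it overlaps AL365273.1, an intronic gene with 18 and 29 counts with REEP6 and 45 and 41 in the controls. The protein-coding gene AL365273.2, also overlapping on that strand, had 0 counts in all libraries. Without a stated strand setting, reads of sequence shared with ENTPD1-AS1 cannot be assigned. The treatment of reads shared on the same strand is not known. Only the spans were compared, so the number of such reads is not known either. By assigned reads, NT5E exceeded ENTPD1 by 107 and 98.8 times per length with REEP6 and by 123 and 120 times in the controls.

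Fibroblast markers moved in the same direction as NT5E. Of 8 markers 4 were measured, and COL3A1, LUM, PDGFRB and POSTN all fell at an edgeR adjusted p of 0.05. Among all genes tested 14.2% were lower. POSTN was above 1 FPKM in the controls only, so passing the filter already tied it to a difference. The summed marker level was 17.1 to 17.3 FPKM with REEP6, against 33.8 to 35.9 FPKM in the controls, nearly all of it COL3A1 and LUM. The other fibroblast markers, COL1A1, COL1A2, DCN and THY1, stayed at or below 0.396 FPKM, with DCN and THY1 at 0 in 3 of the libraries. Endothelial markers, of a tissue rich in ENTPD1, had 0 of 6 members measured, with a summed level of 0.146 to 0.178 FPKM with REEP6 and 0.342 to 0.548 FPKM in the controls. Leukocyte markers had 0 of 8 measured, with summed levels of 0.455 to 0.670 FPKM with REEP6 and 0.564 to 0.666 FPKM in the controls. The part of other cells in the NT5E difference was not tested, and fewer cells of a type and less RNA per cell cannot be told apart in bulk RNA.

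Of the carriers, SLC29A1 was higher with REEP6 and SLC29A2 did not pass the threshold. SLC29A1 (chromosome 6, 44219505 to 44234151, plus strand) had 16.3 and 16.0 FPKM with REEP6, against 10.7 and 12.9 FPKM in the controls. The REEP6 libraries agreed closely and the controls differed from each other. Its log2 fold change was 0.47 ± 0.109 (SE), which became 0.34 when the first control was left out and 0.64 when the second was, and the gene no longer passed with limma on log2(FPKM + 1) (0.42) or log2(FPKM + 0.1) (0.45). SLC29A2 (chromosome 11, 66362521 to 66372214, minus strand) had 8.89 and 10.0 FPKM with REEP6, against 11.2 and 12.2 FPKM in the controls, with a log2 fold change of -0.29 ± 0.123 (SE) that did not pass. It passed in 2 of 13 alternatives, at -0.42 with FPKM scaled to equal sums and at -0.29 with a replicate block. It overlaps the antisense gene AP001107.9, which had 65 and 69 counts with REEP6 and 71 and 82 in the controls. The summed level of both carriers overlapped between groups, at 25.2 and 26.0 FPKM with REEP6 and 22.0 and 25.2 FPKM in the controls. The share of SLC29A1 in it was 64.7% and 61.5% with REEP6, against 48.8% and 51.4% in the controls.

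**Figure D2:**
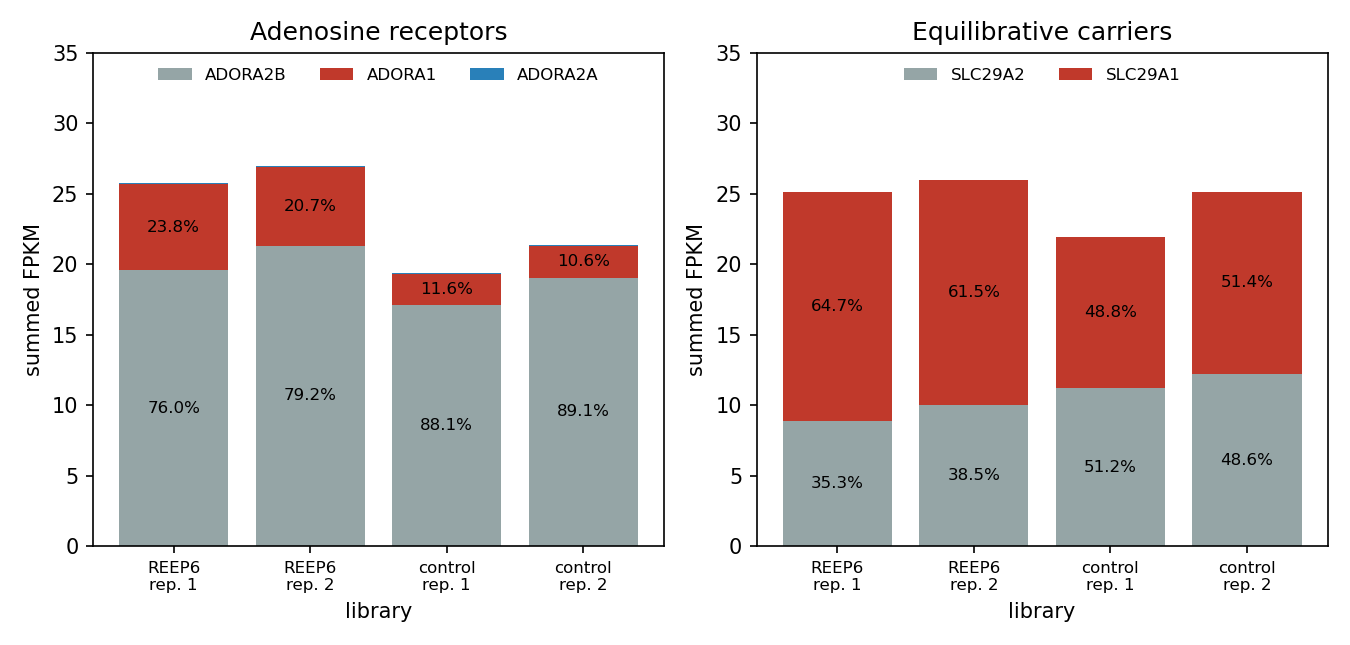
Summed FPKM per library of the adenosine receptors (left) and the equilibrative carriers (right), with the percentage of each gene written in its segment; REEP6 libraries stand left of controls. ADORA1 took 23.8% and 20.7% of the receptor sum with REEP6, against 11.6% and 10.6% in the controls, and ADORA2A is too low to be seen in most bars.

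Inside the cell, ADA (chromosome 20, 44619522 to 44652233, minus strand), which removes adenosine by deamination, had 3.97 and 4.43 FPKM with REEP6, against 2.51 and 2.14 FPKM in the controls. The lower REEP6 library was well above the higher control, and the counts were 150 and 168 against 92 and 93. The log2 fold change was 0.88 ± 0.188 (SE). The span of ADA overlaps that of PKIG, a gene on the other strand for an inhibitor of protein kinase A. PKIG had 195 and 166 counts with REEP6, against 117 and 130 in the controls, so it differed in the same direction, and reads of the overlap cannot be assigned without the strand setting. ADK (chromosome 10, 74151185 to 74709303, plus strand), which returns adenosine to AMP, had 16.5 and 19.8 FPKM with REEP6 and 19.9 and 20.2 FPKM in the controls. REEP6 replicate 2 was close to the controls, and the log2 fold change of -0.12 ± 0.106 (SE) was 0.0031 without REEP6 replicate 1 and -0.25 without REEP6 replicate 2. ADK remained the more abundant of both enzymes. The level of ADA was 0.241 and 0.224 of that of ADK with REEP6, against 0.126 and 0.106 in the controls.

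**Figure D3:**
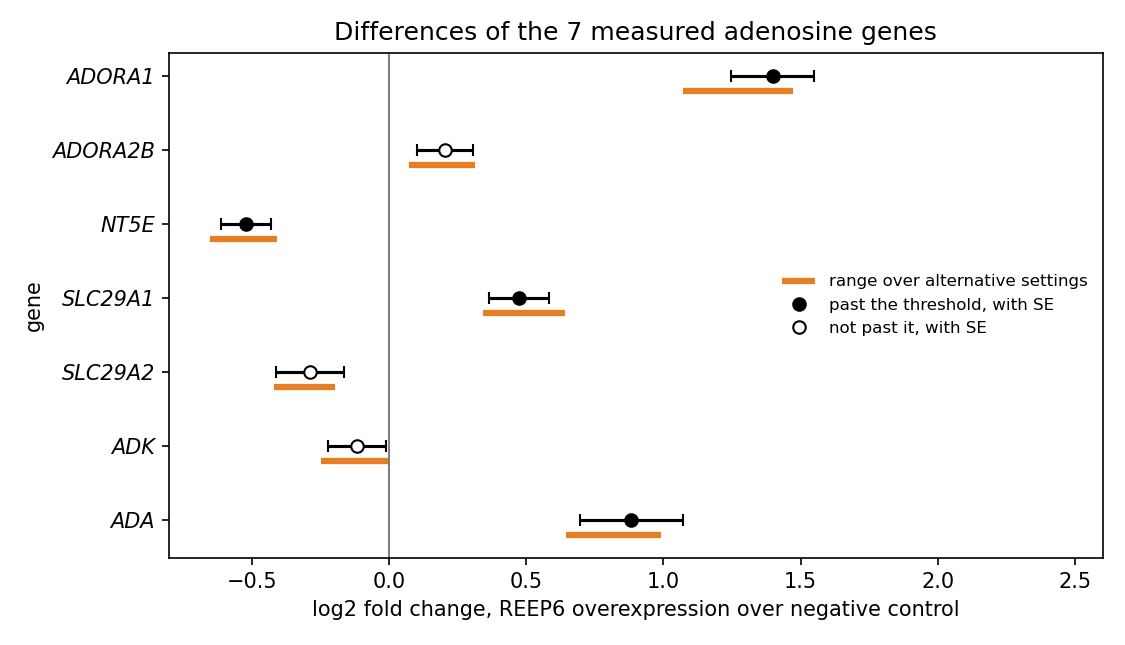
Log2 fold change, REEP6 overexpression over negative control, for the 7 measured adenosine genes with the SE of the edgeR fit; filled points passed an adjusted p of 0.05, and orange bars span the alternative settings. ADORA1 (1.40), ADA (0.88) and SLC29A1 (0.47) lie above 0 and NT5E (-0.52) below it, while the orange bar of ADK reaches 0.

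By level per length, the order in the REEP6 libraries was NT5E, ADORA2B, ADK, SLC29A1, SLC29A2, ADORA1, ADA, ENTPD1 and ADORA2A. In the control libraries it was NT5E, ADK, ADORA2B, SLC29A1, SLC29A2, ADA, ADORA1, ENTPD1 and ADORA2A. With REEP6 the ranges of ADORA2B and ADK overlapped, and in the controls those of SLC29A1 and SLC29A2 and those of ADA and ADORA1. ADORA1 therefore stood above ADA with REEP6, at means of 5.85 and 4.20 FPKM, and did not differ from it beyond the spread in the controls, at 2.26 and 2.33 FPKM. The genes whose FPKM over the 4 libraries followed ADORA1 most closely were DBNDD1, SPNS2, KCNE3 and PDGFA. Their centred log2 FPKM differed from that of ADORA1 by a root mean square of 0.0518, 0.0696, 0.0713 and 0.0765. Of 13002 genes compared, these were the nearest once pseudogenes and genes with clone names were left out. The likeness covers 4 libraries only and mostly reflects a similar fold change.

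For the rest of the pathway, 11 lists with 152 genes, none of them among the 9, were examined in the same fit. Of these genes 87 were measured, and 14 were higher and 15 lower at an edgeR adjusted p of 0.05, 33.3% in all beside the 25.0% of all genes. The median log2 fold change was 0.03 for the 87 genes and -0.01 for all genes tested. LACC1 and PDE8B met the filter only through the controls and PANX2 only through the REEP6 libraries. The counts of each list below stand beside 10.9% of all genes higher and 14.2% lower. Under scaling to equal FPKM sums, which moved the median of all genes to -0.14, the lists had 5 genes higher and 21 lower, and all genes had 661 higher and 2824 lower in place of 1422 and 1853. Single calls were followed only for the up to 5 called genes per list with the smallest p. Among these, the calls that ended with both limma fits were those of NT5DC2, LACC1, P2RX6, GNAI2, GNAS, ADCY9, PDE8A, CREBBP and PER1. Among the same genes, the calls of NT5M, P2RX6 and PER1 ended with DESeq2. With equal FPKM sums those of NT5M, NT5DC2, AHCY, GNAI2, GNAS, ADCY9, PKIG and CREBBP ended. The call of PER1 also ended with median of ratios scaling and without the FPKM filter. Without REEP6 replicate 1 the lists had 7 higher and 10 lower, and without REEP6 replicate 2 they had 9 and 12.

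Other enzymes that break down nucleotides outside the cell were mostly at low levels. Of 16 genes 2 were measured, with 1 lower and 0 higher. ENPP1 had 1.42 and 1.63 FPKM with REEP6, against 2.00 and 2.23 FPKM in the controls, and was not called (edgeR adjusted p 0.0558). ENPP4, a surface phosphodiesterase, fell 2.19-fold to 1.46 ± 0.293 FPKM, against 3.25 ± 0.579 FPKM in the control (SD, n = 2; edgeR adjusted p 0.00501). The CD39 relative ENTPD2 had 10 and 9 counts with REEP6 and 3 and 7 in the controls, and ENTPD3 had 4 and 2 against 2 and 4. DPP4, a surface protein that binds ADA, was at 0.407 and 0.345 FPKM with REEP6 and 0.388 and 0.289 FPKM in the controls, and ADA2, the secreted deaminase, had 0 counts in all libraries. Among carriers and ATP release channels, 6 of 11 were measured, with 1 lower and 0 higher. ABCC4, an exporter of cyclic nucleotides, fell by 0.37 on the log2 scale (edgeR adjusted p 0.0153, but 0.0705 without control replicate 2 and 0.110 without REEP6 replicate 1). SLC29A3, the carrier of lysosomes, had 1.57 and 1.92 FPKM with REEP6 and 1.87 and 1.92 FPKM in the controls and was not called. SLC29A4, a membrane carrier of monoamines and adenosine, had 70 and 62 counts with REEP6 and 31 and 51 in the controls and was not measured. Of 18 other purine receptors 4 were measured, with 1 lower, the ATP-gated channel gene P2RX6 (log2 fold change -0.72 ± 0.209 SE, edgeR adjusted p 0.0335). This call ended without control replicate 1 (adjusted p 0.141), REEP6 replicate 1 (0.0721) or REEP6 replicate 2 (0.107).

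Enzymes of purine handling inside the cell changed in both directions. Of 12 measured intracellular ENTPD and 5′-nucleotidase genes, 3 rose and 1 fell. ENTPD4, a Golgi nucleotidase, fell 1.49-fold (edgeR adjusted p 0.00333). The nucleotidase genes NT5M (1.64-fold), NT5C3B (1.50-fold) and NT5DC2 (1.35-fold) rose. Their calls ended without REEP6 replicate 1 for NT5C3B (adjusted p 0.0819) and NT5DC2 (0.0623), and without control replicate 1 (0.0628) or REEP6 replicate 2 (0.202) for NT5M. With FPKM scaled to equal sums it was 0.0638 for NT5M and 0.0778 for NT5DC2, with DESeq2 0.0715 for NT5M, and with limma 0.0676 and 0.0698 for NT5DC2 at pseudocounts of 1 and 0.1. Of 15 measured genes of AMP and adenosine metabolism, 1 rose and 1 fell. AHCY, which splits S-adenosylhomocysteine into homocysteine and adenosine, rose to 46.4 ± 1.63 FPKM, against 36.3 ± 0.844 FPKM in the control (SD, n = 2; edgeR adjusted p 0.0108, but 0.0783 without REEP6 replicate 1 and 0.0638 with FPKM scaled to equal sums). AK5, an adenylate kinase, fell 2.35-fold (edgeR adjusted p 0.00168). Of 11 measured salvage and breakdown genes, 1 rose and 1 fell. PNP, the purine nucleoside phosphorylase that splits the inosine made by ADA, rose to 7.15 ± 0.0125 FPKM, against 4.31 ± 0.146 FPKM in the control (SD, n = 2; 1.69-fold, edgeR adjusted p 0.00326). LACC1, also an enzyme of purine nucleosides, fell 2.62-fold and was above 1 FPKM in the controls only, and did not pass in the limma fit with a pseudocount of 1 (adjusted p 0.0729).

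Downstream of the receptors, 4 of the 7 measured phosphodiesterase genes, whose products break down cyclic AMP, fell and 0 rose, where 14.2% of all genes tested were lower. PDE3B was at 4.15 and 4.40 FPKM with REEP6, against 11.3 and 9.94 FPKM in the controls, a 2.43-fold fall (edgeR adjusted p 0.000126). PDE7A fell 1.93-fold (edgeR adjusted p 0.000935) and PDE4D 1.46-fold (0.00288). PDE8A fell by 0.44 on the log2 scale, or by 0.26 without control replicate 2, and its call ended there (adjusted p 0.126) and without REEP6 replicate 1 (0.0946). PDE4A, PDE4B and PDE8B were measured and not called, with log2 fold changes of 0.39, 0.01 and -0.58. PDE8B met the filter only through the controls, so it had to differ. Of 4 measured adenylyl cyclase genes, which make cyclic AMP, 2 rose and 0 fell, where 10.9% of all genes tested were higher. ADCY3 had 3.68 and 3.90 FPKM with REEP6, against 2.32 and 2.28 FPKM in the controls (edgeR adjusted p 0.00541). ADCY9 rose by 0.66 on the log2 scale, a call that ended without control replicate 2 (adjusted p 0.103), without REEP6 replicate 2 (0.0621) and with equal FPKM sums (0.0659).

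G protein genes had 6 measured members, of which 2 rose and 1 fell. GNAI1, an inhibitory alpha subunit, fell to 3.55 ± 0.0126 FPKM, against 5.71 ± 0.356 FPKM in the control (SD, n = 2; edgeR adjusted p 0.00126). GNAI2, the more abundant inhibitory subunit, rose by 0.28 and GNAS, the stimulatory subunit, by 0.30 on the log2 scale. Without control replicate 1, REEP6 replicate 1 or REEP6 replicate 2 the edgeR adjusted p was 0.0502, 0.185 and 0.129 for GNAI2 and 0.111, 0.246 and 0.0629 for GNAS. Without control replicate 2 it was 0.0795 for GNAI2, and with FPKM scaled to equal sums 0.279 for GNAI2 and 0.231 for GNAS. In the list of protein kinase A, EPAC and CREB, 5 of 16 measured members rose and 2 fell. CREB1 itself fell by 0.32 on the log2 scale (edgeR adjusted p 0.0335), and the regulatory subunit gene PRKAR2A rose by 0.31 (0.0305). With either limma fit the list had 3 higher and 1 lower, and with equal FPKM sums 2 and 2. The catalytic subunit genes moved apart, with PRKACA 1.46-fold higher (edgeR adjusted p 0.00354) and PRKACB 1.76-fold lower (0.00185). The regulatory subunit gene PRKAR1B rose 1.72-fold (0.00203). PKIG rose 1.57-fold (0.0247, but 0.0570 without control replicate 2 and 0.170 without REEP6 replicate 1), with the overlap with ADA described above. CREBBP, a coactivator of CREB, rose by 0.31 on the log2 scale (0.0247, but 0.0585 without control replicate 2, 0.116 without REEP6 replicate 1 and 0.119 without REEP6 replicate 2).

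**Figure D4:**
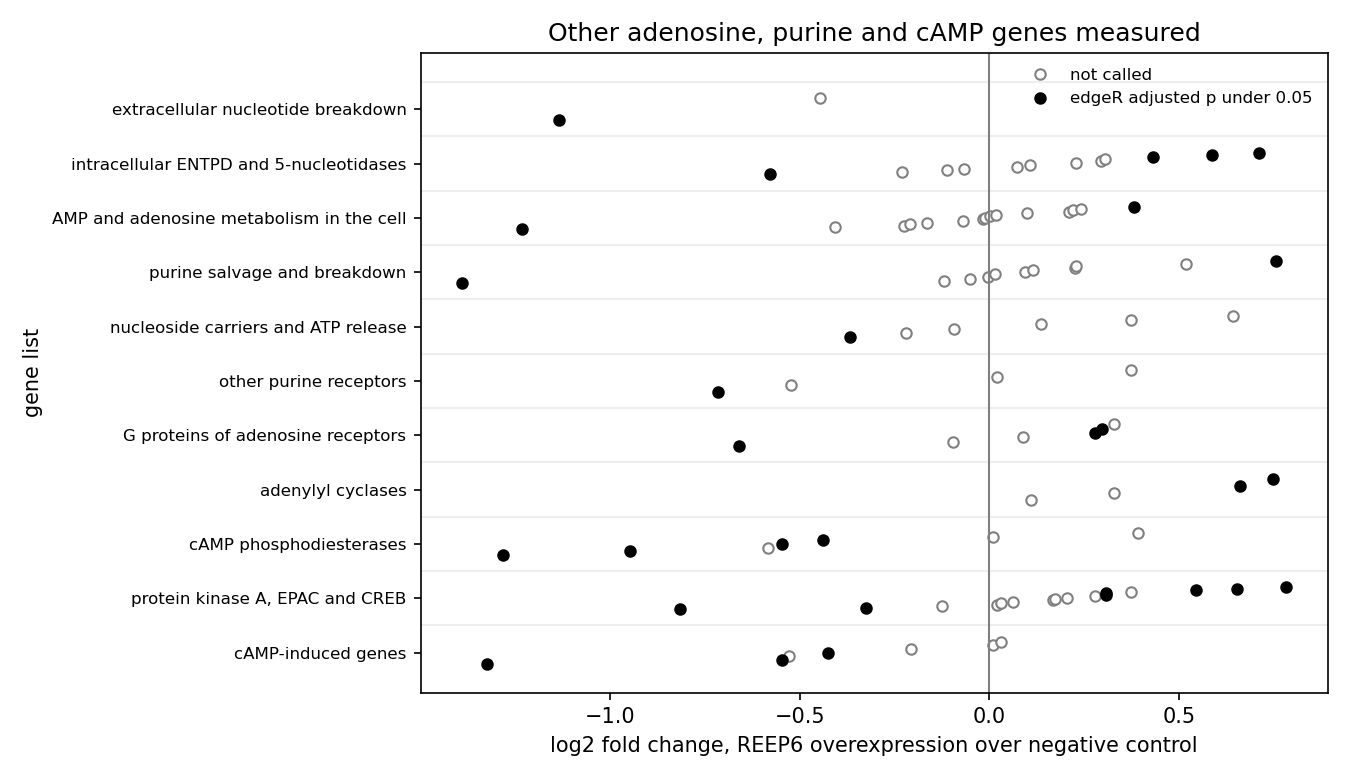
Log2 fold change, REEP6 overexpression over negative control, of each measured gene in 11 lists of adenosine, purine and cAMP genes; filled points passed an edgeR adjusted p of 0.05, and height within a row only separates the points. All 4 called phosphodiesterase genes lie below 0, and both called adenylyl cyclase genes lie above it.

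Of 10 genes known to be induced by cyclic AMP, 7 were measured, with 3 lower and 0 higher. PDE4B and PDE4D belong to this list and to that of the phosphodiesterases. CREM is also in the list of protein kinase A, EPAC and CREB. PPARGC1A, a transcriptional coactivator of mitochondrial genes, had 1.30 and 1.57 FPKM with REEP6, against 3.34 and 3.96 FPKM in the controls (2.50-fold lower, edgeR adjusted p 0.000624). The clock gene PER1 fell by 0.42 on the log2 scale (edgeR adjusted p 0.0483). Its call ended whichever library was left out, with edgeR adjusted p-values of 0.164 and 0.144 when the first or second REEP6 library was dropped and 0.0728 and 0.166 when the first or second control was. The immediate early genes NR4A2 (log2 fold change -0.53) and FOS (-0.21) were not called, and CREM, the cyclic AMP response modulator, was at 2.29 and 2.36 FPKM with REEP6 and 2.24 and 2.40 FPKM in the controls.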

How the data were processed

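Polyadenylated RNA of 4 SCC-15 samples was sequenced, with groups and replicate numbers as titled by the submitters. Each sample has a table, deposited by the authors, of raw counts and FPKM per Ensembl gene, per the file headers. Per the submitters' processing notes, the tools were HISAT2 and HTSeq 0.13.5 and the build GRCh38, with no roles named. The sources used here do not give the annotation, the strand setting or how ambiguous reads were treated. The deposited FPKM equalled the count over 1 length per gene and the library's count total for 100% of 25261 genes (tolerance 0.0001, relative). For the 9 genes that length was the union of GENCODE release 29 exons, the source of gene coordinates here.

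Counts of genes with at least 1 FPKM in at least 2 libraries (13077) were TMM-scaled for edgeR 4.0.16 under R 4.3.3 (quasi-likelihood, group term only, 2 residual degrees of freedom, two-sided, Benjamini-Hochberg over all genes). The standard error is the log2 fold change over the square root of F. With 2 against 2 libraries, the smallest two-sided p of an exact permutation test is 0.333, and it was not used. The method was tested on simulated data. Alternatives were other scalings, filters, limma 3.58.1 (pseudocounts of 1 and 0.1), DESeq2 1.42.0, leaving out each library, and a replicate block.

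The 9 genes, the 11 pathway lists, the markers and the tests were chosen with earlier results of these data known. Named were the 9 genes, REEP6, fixed paralogs and partners, up to 5 called genes per list by p, and the 4 genes nearest to ADORA1. CREB1 and PRKAR2A, called but outside that limit, were named as well and were not among the genes followed over the alternatives. Markers, overlapping genes and uncalled members of short lists are named beside the counts they belong to, and were chosen for mention after their values were seen. Promoters are from RefSeq (GRCh38.p14), in the orientation of the gene; the 50 bases after the start were found in GENCODE transcripts for the 4 windows printed.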

Additional observations from a re-analysis of the deposited data

How the results depend on the processing

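The 7 measured adenosine genes gave 90 values over 13 alternative settings, 3 of which moved by more than the replicate spread and none of which turned the direction of a gene past the threshold. These were ADORA1 at 1.27 with equal FPKM sums and 1.07 with limma on log2(FPKM + 1), and ADA at 0.65 with that limma fit, on the log2 scale. Over the settings in which each was fitted, the log2 fold change was 1.07 to 1.47 for ADORA1 and 0.65 to 0.99 for ADA. It was 0.34 to 0.64 for SLC29A1 and -0.65 to -0.41 for NT5E. All settings reuse the libraries on which the genes were selected, so passing the threshold in them adds no support. The ADORA1 share of receptor RNA was 11.1 percentage points higher with REEP6 by FPKM and 14.9 by CPM. Over all genes, 1422 were higher and 1853 lower. The counts became 661 and 2824 with equal FPKM sums, 936 higher with a minimum of 5 FPKM, 634 higher with limma on log2(FPKM + 1), 597 higher and 1233 lower with limma on log2(FPKM + 0.1), and 940 to 1495 higher and 1272 to 1718 lower without 1 library. Among pathway genes 14 were higher and 15 lower. The counts became 5 higher with equal FPKM sums, 8 higher with either limma fit, 9 lower with a minimum of 5 FPKM, where fewer genes are tested, and 7 to 12 higher and 10 to 13 lower without 1 library. For the other changes the cause was not tested. Of 415 values of 33 named genes, 353 kept direction and call, 61 lost the call and 1 reversed. This was SLC29A3, which was not called and ranged from -0.24 to 0.037 when 1 library was left out.

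The labels give the replicates numbers but no pairing. Within-group deviations of equal numbers correlated at 0.27 over genes. A replicate block gave 2960 genes higher and 3062 lower, with 23 and 21 of the pathway genes. Of the 9 adenosine genes 4 were higher and 2 lower, ADORA2B and SLC29A2 being added to those past the threshold. The block leaves fewer residual degrees of freedom than the 2 of the main fit, and why more genes passed was not tested. At this depth no difference was detectable for ADORA2A and ADORA3. For ADORA2A the treatment of reads shared with SPECC1L-ADORA2A is also not known, and genes overlapping ADORA3 were not examined.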
